A study of Rattus norvegicus with 11 samples.

Results

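Astrocyte genes were examined in the rat medial prefrontal cortex (mPFC), as 6 genes fixed by their Ensembl identifiers: Gfap (ENSRNOG00000002919), S100b (ENSRNOG00000001295), Aqp4 (ENSRNOG00000016043), Gja1 (ENSRNOG00000000805) and the glutamate transporters Slc1a3 (ENSRNOG00000016163) and Slc1a2 (ENSRNOG00000005479). All 6 were among the 15607 genes of the table of DESeq2-normalized counts. The libraries came from tissue punches of Sprague-Dawley rats aged 2 to 3 months, and no agent or genetic change was applied to any group. They comprised males (n = 4), females in diestrus, a stage with low levels of ovarian hormones (n = 4), and females in the early afternoon of proestrus, when those levels are high (n = 3). Per the study's methods, diestrus females were killed early on the first day of that stage and males on the same days as females, so stage and hour of collection cannot be told apart.

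Astrocytes are the glial cells that take up transmitter, water and potassium around synapses and vessels. At a glutamatergic synapse, the released glutamate is removed mainly by sodium-driven transporters in the astrocyte membrane, GLT-1 (Slc1a2) and GLAST (Slc1a3). Potassium and small metabolites spread between astrocytes through gap junctions built of connexin 43 (Gja1), and water crosses their endfeet through aquaporin 4 (Aqp4). Gfap encodes an intermediate filament that is higher in reactive astrocytes, and S100b a calcium-binding protein that oligodendrocytes can also carry.

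The libraries held 15.9 to 24.6 M reads on genes, and each value below is a normalized count, that is, the reads of a gene divided by 1 size factor per library. A value can be compared between libraries for the same gene, but not between genes, since it was not divided by gene length. In each of the 66 values, counting error was small, from 0.723% for S100b to 5.23% for Slc1a2. Over all genes, some libraries stood apart from others of their group. The chi-square of reads per degree of freedom was 5.29 between diestrus replicates 2 and 3 and 4.94 between 4 and 5, but 13.7 to 25.6 across these pairs. It was 14.2 to 27.2 between male replicate 3 and the other males, and 7.39 to 11.0 among those. The deviations from the group mean of diestrus replicates 2 and 3 correlated across genes with those of male replicate 3 (r = 0.50 and 0.59). In bulk punches, fewer astrocytes and less RNA per astrocyte cannot be told apart. Markers of neurons, oligodendrocytes, microglia and vessels were not analysed here, since no table used here pairs their symbols with the identifiers of the deposited table.

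As a check of the label, the place of each gene among all genes was described. The mean normalized count of Gfap, S100b, Aqp4, Gja1 and Slc1a3 was above that of 91.1% to 99.2% of genes. The row given as Slc1a2 had 468 ± 52.4 normalized counts (SD, n = 11), above 59.9% of genes. GLT-1 is known as the main glutamate transporter of the adult forebrain, with an abundant transcript. These places are not corrected for gene length, so they neither settle the label of the row nor rank the members. Which part of the transcript was counted in the row was not tested, and the values below are those of the row.

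**Figure D1:**
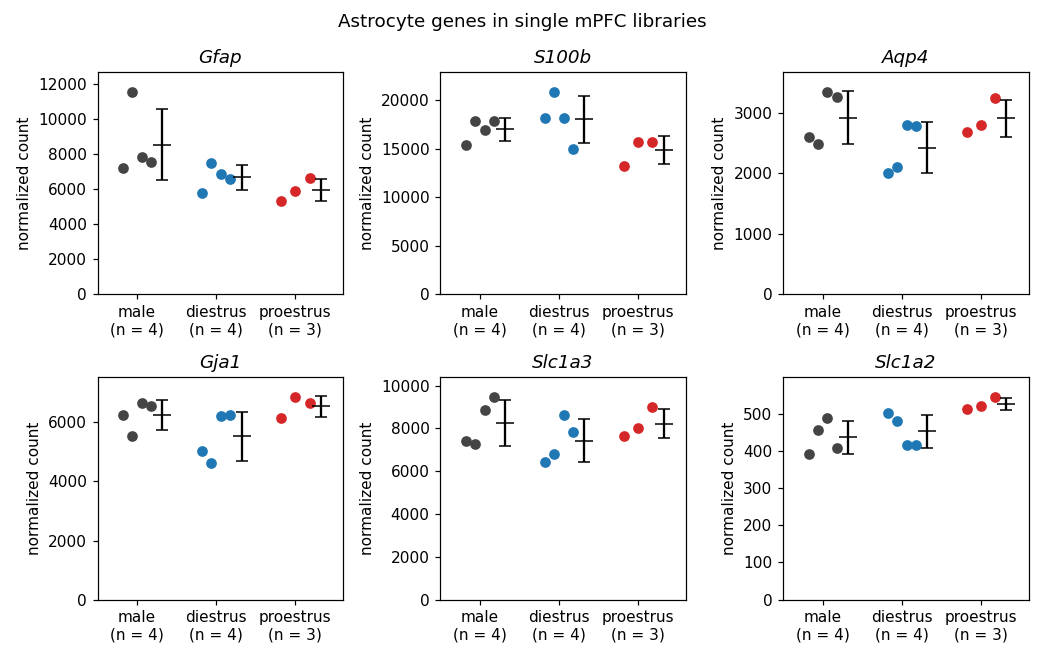
Normalized counts (y axis, from 0) of the 6 genes in males, diestrus and proestrus (x axis), with 1 point per library and the mean ± SD as a bar beside the points. The points of male replicate 3 in Gfap (11555) and of all proestrus libraries in the Slc1a2 row (514 to 545) are the highest of their panels, the nearest other Slc1a2 value being 503.

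Gfap, the filament marker, was lower in every proestrus library than in every male library, a difference that did not pass the test over all genes. Its normalized count was 7234, 11555, 7836 and 7533 in male replicates 2, 3, 4 and 5. It was 5787, 7511, 6890 and 6599 in diestrus replicates 2, 3, 4 and 5, and 5329, 5913 and 6638 in proestrus replicates 1, 3 and 5. All proestrus values lay below all male values, whereas 1 diestrus value lay within the male range and the others below it. Male replicate 3 stood above every other library, and the other 3 males were close to each other.

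Gfap averaged 8540 ± 2025 in males and 6697 ± 716 in diestrus (mean ± SD, n = 4 each), and 5960 ± 656 in proestrus (n = 3). The log2 fold change was −0.50 in proestrus vs males (SE 0.14, 95% interval −0.81 to −0.19, limma adjusted p = 0.309) and −0.33 in diestrus vs males (SE 0.13, interval −0.62 to −0.04, adjusted p = 0.474). Neither passed the false discovery rate (FDR) of 0.05 over all genes, and the difference of proestrus and diestrus was within the spread (−0.17, interval −0.48 to 0.14, adjusted p = 0.445). This last value was −0.090 without proestrus replicate 1 and −0.080 under quantile normalization. With the sexes compared irrespective of stage, Gfap had a log2 fold change of −0.40 in females (interval −0.67 to −0.14, adjusted p = 0.578). Without male replicate 3, these differences were smaller, at −0.34 for proestrus (limma adjusted p = 0.460), −0.18 for diestrus (0.289) and −0.25 for all females (0.930), each against males.

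S100b, the calcium-binding marker, had its highest mean in diestrus. Its normalized count was 15383, 17887, 16994 and 17906 in male replicates 2, 3, 4 and 5. It was 18234, 20854, 18233 and 14947 in diestrus replicates 2, 3, 4 and 5, and 13198, 15688 and 15665 in proestrus replicates 1, 3 and 5. Of the diestrus libraries, 3 lay above every proestrus library, while diestrus replicate 5 fell within the proestrus range. S100b averaged 18067 ± 2419 in diestrus and 17042 ± 1185 in males (mean ± SD, n = 4 each), and 14850 ± 1431 in proestrus (n = 3).

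In proestrus vs diestrus, S100b had a log2 fold change of −0.28 (SE 0.10, 95% interval −0.50 to −0.05, limma adjusted p = 0.136) and did not pass the FDR. It passed where diestrus replicate 5 was left out (−0.37, adjusted p = 0.0298), a fit in which 11.4% of all genes passed. Under quantile normalization the difference was smaller (−0.14, adjusted p = 0.285). Against males, the log2 fold change of S100b was −0.20 in proestrus (interval −0.42 to 0.02, adjusted p = 0.479) and 0.08 in diestrus (interval −0.13 to 0.28, adjusted p = 0.768). Leaving out single libraries gave −0.25 to −0.12 in proestrus, the smallest without proestrus replicate 1, and 0.0046 to 0.16 in diestrus, the extremes without diestrus replicates 3 and 5. Under quantile normalization these differences were −0.12 and 0.018.

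Aqp4, Gja1 and Slc1a3, which serve water, gap junction coupling and glutamate uptake, had similar profiles over the animals. The normalized count of Aqp4 was 2602, 2477, 3337 and 3252 in male replicates 2, 3, 4 and 5. It was 2003, 2106, 2798 and 2780 in diestrus replicates 2, 3, 4 and 5, and 2677, 2789 and 3240 in proestrus replicates 1, 3 and 5. Diestrus thus held a low pair, replicates 2 and 3, and a pair within the range of the other groups.

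The same diestrus libraries, which over all genes were apart from diestrus replicates 4 and 5, were low in the other genes of this trio. Gja1 had 5015, 4621, 6215 and 6238 normalized counts in diestrus replicates 2, 3, 4 and 5, against 6249, 5549, 6646 and 6562 in male replicates 2, 3, 4 and 5 and 6145, 6846 and 6644 in proestrus replicates 1, 3 and 5. Slc1a3 had 6446, 6823, 8626 and 7837 normalized counts in diestrus replicates 2, 3, 4 and 5. In male replicates 2, 3, 4 and 5 it had 7402, 7290, 8862 and 9452, and in proestrus replicates 1, 3 and 5 it had 7645, 8040 and 8998. In Aqp4, Gja1 and Slc1a3, diestrus replicates 2 and 3 were the lowest of the 11 libraries, and the groups overlapped in each comparison.

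Aqp4 averaged 2917 ± 440 in males, 2902 ± 298 in proestrus and 2422 ± 426 in diestrus (mean ± SD, n = 4, 3 and 4). Gja1 averaged 6251 ± 498 in males, 6545 ± 361 in proestrus and 5522 ± 829 in diestrus, and Slc1a3 averaged 8252 ± 1074, 8228 ± 696 and 7433 ± 989 in the same order. The log2 fold changes in proestrus vs diestrus were 0.27 for Aqp4 (95% interval −0.03 to 0.57, limma adjusted p = 0.217), 0.26 for Gja1 (0.03 to 0.48, adjusted p = 0.156) and 0.15 for Slc1a3 (−0.09 to 0.40, adjusted p = 0.382). In diestrus vs males they were −0.27 for Aqp4 (−0.55 to 0.0043, adjusted p = 0.523), −0.19 for Gja1 (−0.40 to 0.02, adjusted p = 0.559) and −0.15 for Slc1a3 (−0.38 to 0.08, adjusted p = 0.630). None of these differences passed the FDR in the main fit. With the replicate number as a block, Aqp4 passed in proestrus vs diestrus (0.33, limma adjusted p = 0.0498), a fit in which 517 of 15607 genes passed. That number was not taken as a pairing. Leaving out single libraries gave −0.25 to −0.11 for Gja1 and −0.23 to −0.083 for Slc1a3 in diestrus vs males, the smallest without diestrus replicate 3 and male replicate 5, respectively. In proestrus vs diestrus it gave 0.086 to 0.23 for Slc1a3, the smallest without proestrus replicate 5, and quantile normalization gave 0.26.

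Proestrus and male means of the trio lay close to each other. The 95% interval of the log2 fold change in proestrus vs males was −0.30 to 0.30 for Aqp4 (adjusted p = 1.00), −0.16 to 0.30 for Gja1 (0.781) and −0.24 to 0.25 for Slc1a3 (0.996). For Slc1a3 this interval corresponds to a change of −15.6% to 18.7%. The estimates for Aqp4 and Slc1a3 were so near 0 that their sign depended on the scaling and on single libraries. That of Gja1, 0.07, was 0.012 without male replicate 3, 0.11 without proestrus replicate 1 and 0.13 under quantile normalization.

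The last member, the row given as Slc1a2, had 514, 521 and 545 normalized counts in proestrus replicates 1, 3 and 5. It had 503, 481, 416 and 417 in diestrus replicates 2, 3, 4 and 5, and 392, 458, 489 and 408 in male replicates 2, 3, 4 and 5. All proestrus values lay above all diestrus and all male values, the nearest being 503 in diestrus replicate 2. The gap between this value and 514 was smaller than the counting error of either. The counts were low, at 366 to 548 reads per library, and the spread within proestrus (3.08% of the mean) was below the 4.42% that counting error alone gives.

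The Slc1a2 row averaged 527 ± 16.2 in proestrus (mean ± SD, n = 3), against 454 ± 44.4 in diestrus and 437 ± 44.7 in males (n = 4 each). The log2 fold change was 0.22 in proestrus vs diestrus (SE 0.10, 95% interval −0.0026 to 0.44, limma adjusted p = 0.191) and 0.27 in proestrus vs males (SE 0.10, interval 0.05 to 0.50, adjusted p = 0.394). The difference of diestrus and males was within the spread (0.06, interval −0.15 to 0.26, adjusted p = 0.838), with 0.0047 to 0.11 when single libraries were left out, the extremes without diestrus replicate 2 and male replicate 4.

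**Figure D2:**
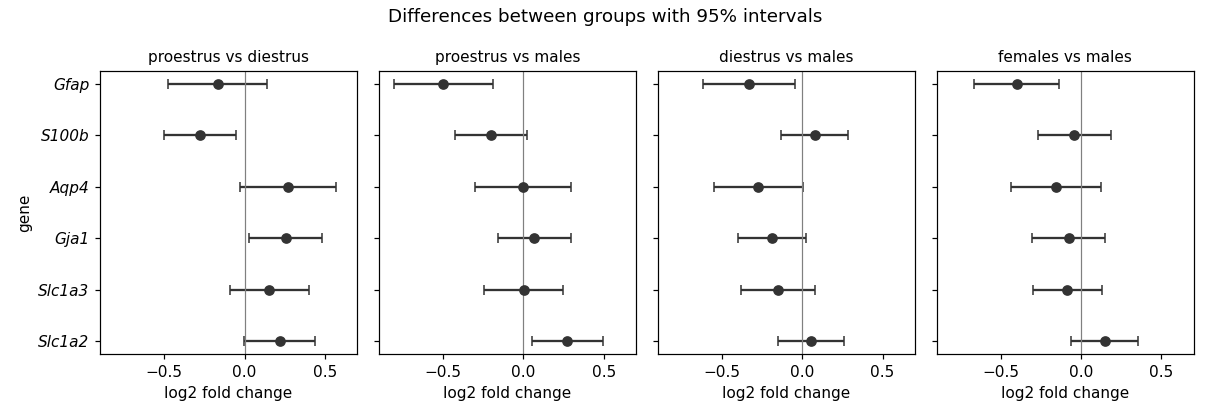
Log2 fold change (x axis) of each gene (y axis) in the 4 comparisons, 1 panel each, with points for the limma estimates and bars for their 95% intervals. Intervals that leave out 0 are those of S100b and Gja1 in proestrus vs diestrus, of Gfap in the 3 comparisons with males and of the Slc1a2 row in proestrus vs males, and none of the 24 estimates passed the FDR over all genes.

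Over the 6 genes, the comparisons, which share libraries, gave the following counts. In proestrus vs diestrus, 0 of 6 passed the FDR with limma, edgeR or DESeq2, where 2.53%, 2.7% and 6.89% of all genes passed. With limma, the number of all genes passing went from 395 to 0 without proestrus replicate 1 or 3. It went to 1774 without diestrus replicate 5. S100b and Gja1 had an unadjusted p below 0.05 with limma in this comparison, as did 26.7% of all genes. In proestrus vs males, 0 of 6 passed with limma, edgeR or DESeq2, where 0.0833%, 0.0833% and 0.756% of all genes passed. Gfap and the Slc1a2 row had an unadjusted p below 0.05 there, as did 11.3% of all genes.

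For diestrus vs males, 0 of 6 passed with limma, edgeR or DESeq2, where 0.128%, 0.141% and 0.75% of all genes passed. Gfap was the 1 member with an unadjusted p below 0.05, a value that 9.62% of all genes had. For all females vs males, 0 of 6 passed with limma, edgeR or DESeq2, where 0.135%, 0.147% and 0.493% of all genes passed. Gfap was again the 1 member with an unadjusted p below 0.05, as had 4.83% of all genes.

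Groups without overlap were read against the same background. The Slc1a2 row was the 1 member of 6 without overlap in proestrus vs diestrus, where 26.6% of all genes had none. Gfap and the Slc1a2 row were the 2 members without overlap in proestrus vs males, against 13.3% of all genes. No member was without overlap between diestrus and males (3.84% of all genes) or between all females and males (1.06%). The median log2 fold change of the members was 0.19 in proestrus vs diestrus, beside −0.01 over all genes, with 4 of 6 above 0. It was 0.0008 beside 0.0052 over all genes in proestrus vs males, with 3 of 6 above 0. It was −0.17 beside 0.0096 when diestrus was set against males (2 of 6 above 0). When all females were, it was −0.08 beside 0.01 (1 of 6 above 0). Of all genes, 48.3%, 51.0%, 52.2% and 54.5% were above 0 in these comparisons, in the order given.

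In females vs males, the remaining members had log2 fold changes from −0.16 to 0.15. These were −0.16 for Aqp4 (95% interval −0.43 to 0.12), −0.09 for Slc1a3 (−0.30 to 0.13), −0.08 for Gja1 (−0.30 to 0.15), −0.04 for S100b (−0.27 to 0.19) and 0.15 for the Slc1a2 row (−0.06 to 0.36), each with a limma adjusted p of 1.00. Leaving out single libraries gave −0.23 to −0.087 for Aqp4, −0.14 to −0.017 for Slc1a3 and −0.13 to −0.019 for Gja1, each farthest from 0 without male replicate 3. They were nearest to 0 without male replicate 4, male replicate 5 and diestrus replicate 3, respectively. The range was −0.098 to 0.012 for S100b, above 0 without proestrus replicate 1, and 0.099 to 0.21 for the Slc1a2 row, lowest without male replicate 2.

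The Slc1a2 row was also set against Slc1a3 within each library, where the scaling between libraries cancels. The size of this ratio also depends on the length of both genes, so that only its differences between groups were read. The log2 ratio of the Slc1a2 row to Slc1a3 was −3.96 ± 0.08 in proestrus (mean ± SD, n = 3), and −4.03 ± 0.33 and −4.23 ± 0.22 in diestrus and males (n = 4 each). Differences of this ratio, compared with two-sided exact permutation tests, were 0.07 in proestrus vs diestrus (p = 0.743, adjusted over 3 tests 0.743), 0.27 in proestrus vs males (p = 0.0857, adjusted 0.257) and 0.21 in diestrus vs males (p = 0.343, adjusted 0.514). The smallest p these designs allow is 0.0286, which in 1 comparison alone would not pass after the adjustment over 3 tests, so that no single difference could have passed on its own. Leaving out single libraries gave differences of −0.049 to 0.18 in proestrus vs diestrus, below 0 without diestrus replicate 4 or 5. It gave 0.17 to 0.35 in proestrus vs males, the smallest without male replicate 5, and 0.090 to 0.32 in diestrus vs males, the extremes without diestrus replicates 2 and 4.

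**Figure D3:**
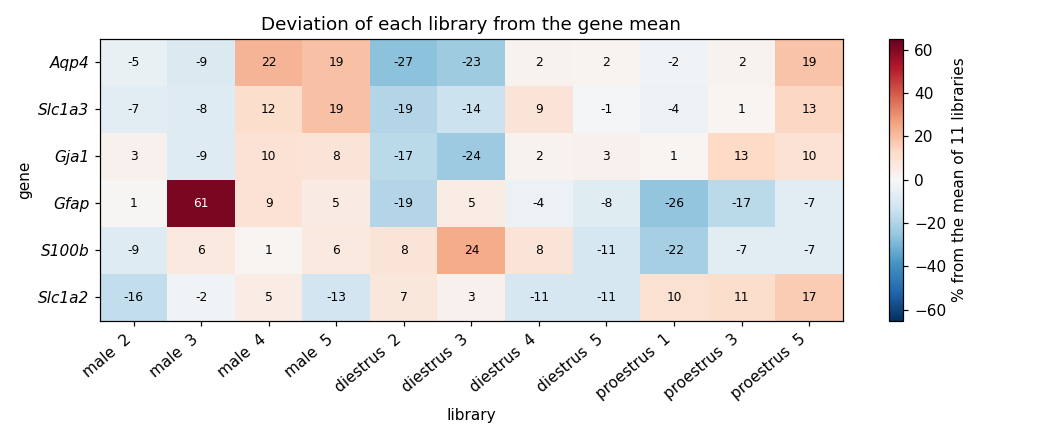
Deviation of each library (x axis) from the mean of the 11 libraries for each gene (y axis), in percent, by colour and as a number. Aqp4, Slc1a3 and Gja1 share their pattern, lowest in diestrus replicates 2 and 3, whereas male replicate 3 stands out in Gfap.

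How the members varied together over single animals was then described with correlations of the log2 values over the 11 libraries, for 15 pairs. Aqp4 and Slc1a3 had Pearson r = 0.96 and Spearman rho = 0.97 (permutation p = 1e-05, the smallest that 100000 resamples can give, adjusted p = 0.00015 for both). Aqp4 and Gja1 had r = 0.90 (adjusted permutation p = 0.00172) and rho = 0.81 (0.0309). Slc1a3 and Gja1 had r = 0.82 (adjusted permutation p = 0.00550) and rho = 0.78 (0.0338). None of the other 12 pairs passed, with r from −0.61 for S100b and Gja1 to 0.47 for Gfap and S100b (adjusted permutation p of 0.177 or more).

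The trio was also compared within groups. After each value was centred on its group mean, r was 0.96 for Aqp4 and Slc1a3, 0.86 for Aqp4 and Gja1 and 0.79 for Slc1a3 and Gja1. A further set left out diestrus replicates 2 and 3 and male replicate 3, the last being apart from the other males over all genes. The choice was made after seeing the data, and diestrus replicates 2 and 3 are the diestrus pair that was low in the trio. On the 8 libraries left, r was 0.90 for Aqp4 and Slc1a3, 0.62 for Aqp4 and Gja1 and 0.52 for Slc1a3 and Gja1. Pairs outside the trio such as Gfap and S100b (0.76) and S100b and Slc1a3 (0.73) were then above both pairs with Gja1. None was above Aqp4 and Slc1a3. On these 8 libraries, Gfap had r of 0.56 with Aqp4, 0.52 with Slc1a3 and 0.20 with Gja1. Without diestrus replicates 2 and 3 alone, the libraries farthest from the median of Aqp4, r was 0.93 for Aqp4 and Slc1a3 and 0.73 for Aqp4 and Gja1. Without diestrus replicate 2 and male replicate 5, the farthest for Slc1a3, r was 0.78 for Slc1a3 and Gja1. Over the 11 libraries, the normalized counts varied by 16.0% (coefficient of variation) in Aqp4 and 11.7% in Gja1, against counting errors of 1.94% and 1.30%.

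**Figure D4:**
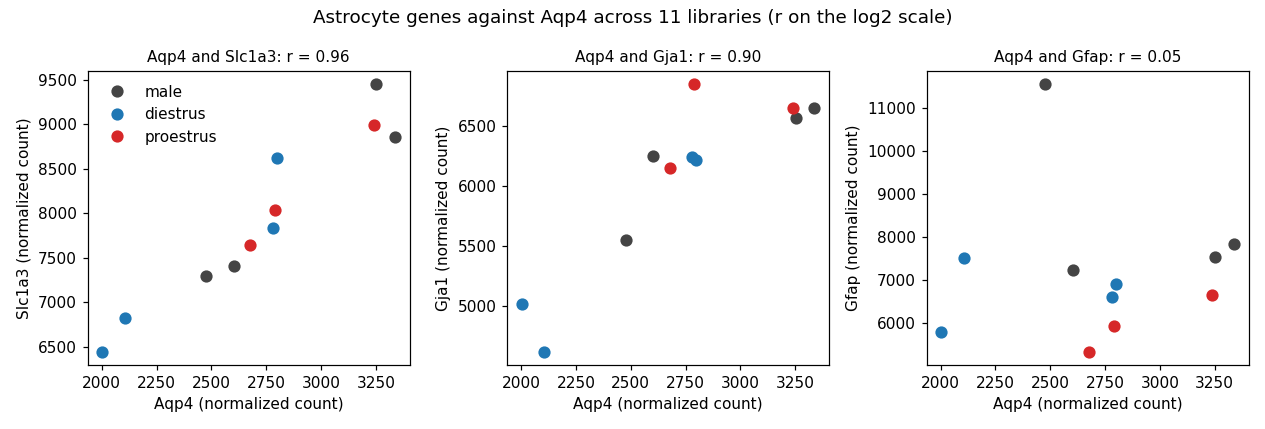
Normalized counts of Slc1a3, Gja1 and Gfap (y axes) against that of Aqp4 (x axes, none starting at 0), with 1 point per library coloured by group. Points follow a line for Slc1a3 (r = 0.96) and Gja1 (r = 0.90) and none for Gfap (r = 0.05), where male replicate 3 lies highest. The r of Gfap and Aqp4 was 0.39 without male replicate 3 and proestrus replicate 1, and −0.11 after centring on group means. It was 0.56 without diestrus replicates 2 and 3 and male replicate 3.

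Where all 11730 other genes averaging 50 normalized counts or more were ranked, Slc1a3 took rank 2 by r with Aqp4, and Aqp4 was ranked 2 by r with Slc1a3. Gja1 was ranked 88 for Aqp4 (0.75% from the top) and 177 for Slc1a3 (1.51%). In the other direction Aqp4 was ranked 314 (2.68%) and Slc1a3 1193 (10.2%) for Gja1. The classical markers were not near the top, as Gfap was ranked 5380 and S100b 7014 for Aqp4. The Slc1a2 row was ranked 5794 for Aqp4 and 6010 for Slc1a3. These ranks are descriptions, since all genes share the same 11 libraries and their scaling.

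**Figure D5:**
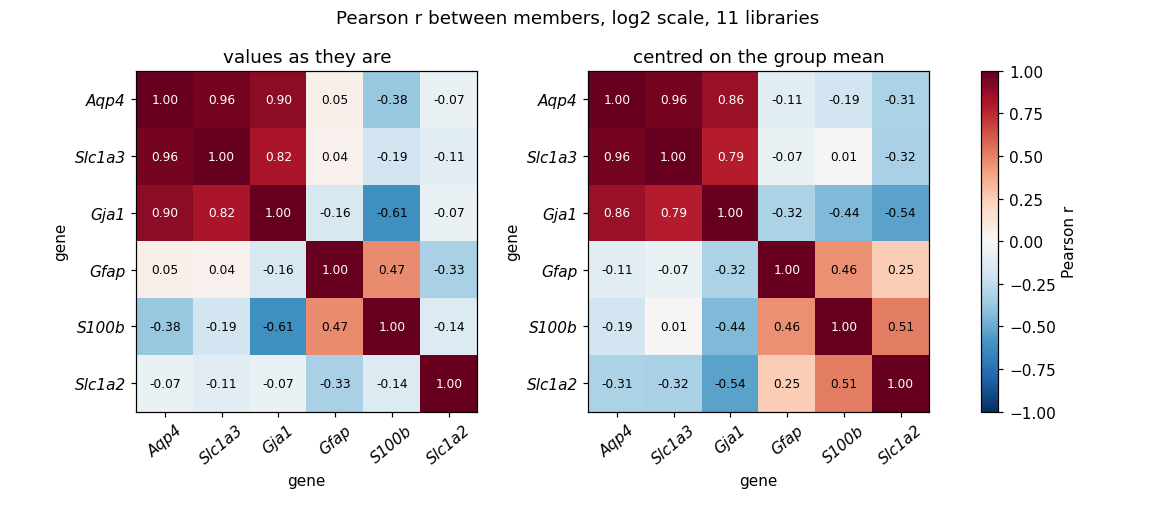
Pearson r of each pair of members over the 11 libraries on the log2 scale, for the values as they are and for values centred on the group mean. Aqp4, Slc1a3 and Gja1 form 1 block with r of 0.79 or more in both, and the other pairs lie between −0.61 and 0.51.

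The sequences upstream of these 3 genes are shown since theirs were the pairs that passed over the 11 libraries, a pattern that was weaker for Gja1 without the 3 libraries that stood apart. They are the 250 bases before the first start listed by RefSeq for each gene in the GRCr8 assembly, 5′ to 3′ on the strand of the gene, and capitals mark an AP-1 motif (TGANTCA) or an NFI motif (TTGGC) on either strand. The windows lie at chr18:6798843-6799092 on the minus strand for Aqp4, chr2:59557809-59558058 on the minus strand for Slc1a3 and chr20:36302314-36302563 on the plus strand for Gja1.
Aqp4: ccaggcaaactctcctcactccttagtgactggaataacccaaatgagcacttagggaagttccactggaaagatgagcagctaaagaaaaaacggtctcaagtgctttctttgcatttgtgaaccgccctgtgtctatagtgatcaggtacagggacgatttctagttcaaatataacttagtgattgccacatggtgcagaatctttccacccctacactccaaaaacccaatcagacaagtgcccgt
Slc1a3: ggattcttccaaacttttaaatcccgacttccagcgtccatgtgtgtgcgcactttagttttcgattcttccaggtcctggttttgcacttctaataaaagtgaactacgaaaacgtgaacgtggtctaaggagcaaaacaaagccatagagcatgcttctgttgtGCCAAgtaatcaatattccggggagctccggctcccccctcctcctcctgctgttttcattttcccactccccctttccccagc
Gja1: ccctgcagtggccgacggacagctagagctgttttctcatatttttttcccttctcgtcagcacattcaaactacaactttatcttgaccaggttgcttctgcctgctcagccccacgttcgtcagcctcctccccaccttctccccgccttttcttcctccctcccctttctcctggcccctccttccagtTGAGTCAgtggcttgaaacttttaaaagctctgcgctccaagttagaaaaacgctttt

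Of the 33469 windows of this length in RefSeq, 6.34% held the AP-1 motif and 40.3% the NFI motif, and each of the 3 windows shown held at most 1 match. The AP-1 motif was present in the window of Gja1, 58 to 52 bases before its start, and in none of the other 9 windows of the 6 genes. The NFI motif was found in 5 of the 10 windows, those of Slc1a3 and S100b and 1 of Slc1a2. The 3 windows of Slc1a3 overlap and hold the same single match, so that these 5 windows stand for 3 genes. The palindromic consensus of the estrogen response element, present in 0.0239% of all windows, was in none of the 10 member windows, and a STAT motif (TTCNNNGAA, 7.67% of all windows) was in none either. Matches of these letters are descriptions, and no match was shared by all 3 genes of the trio.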

How the data were processed

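Gene expression was measured by RNA sequencing in 11 libraries of mPFC punches, grouped by their labels. Per the labels and the study's methods, the authors trimmed single-end reads of unstranded, poly(A)-selected libraries (Trimmomatic 0.32), aligned them to Rnor_5.0 (TopHat2 2.0.11, Bowtie2 2.1.0), counted unique reads per Ensembl gene (HTSeq 0.6.1p1), discarded genes below a minimum set from spike-in RNA and left out 1 proestrus library, not analysed here. The deposited table used here holds a signal per gene and library, that is, counts divided by DESeq2 size factors (DESeq2 1.4.5). The second deposited table, described as normalized with edgeR, was not used here.

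All values of the table were whole multiples of 1 step per library (100% within a tolerance of 0.01), which gave the reads behind them. The main test was limma 3.58.1 (R 4.3.3) with a prior variance trend on log2(normalized count + 1), with Benjamini-Hochberg adjustment over all 15607 genes at an FDR of 0.05. The 3 comparisons between groups came from 1 model of all 11 libraries, and the sexes were compared in a second model with no term for stage. A fold change on this scale understates that of low genes. As alternatives, the reads themselves entered edgeR 4.0.16 (quasi-likelihood) and DESeq2 1.42.0. Each of these tests was first tested on simulated data. Libraries of 1 group differed by more than sampling noise (chi-square of 4.94 to 27.2 per degree of freedom), so none was a copy of another. The labels do not say which animals a library came from, while the study's methods describe the libraries as biological replicates. The p-values measure the spread between these samples.

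The members and lists were chosen with earlier results of these data known. All 6 members are named, and besides them the 2 genes most like their mean profile. The RefSeq table (GRCr8) gave an Ensembl identifier for 0 of 47357 genes, so the planned lists of other cell type markers were not matched and are not analysed here. Symbols of the 6 members came with their identifiers, and all 6 matched a RefSeq symbol with 10 upstream windows.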

Additional observations from a re-analysis of the deposited data

Results flagged for a closer look

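The normalized count of Gfap in male replicate 3 (11555) lay apart from the other males, its gap to the nearest of them being 0.861 of the whole male range. It was the only such case in 14 sets of 4 libraries, and chance gives about 1 in 20. The library also stood apart over all genes, with a chi-square of reads per degree of freedom of 14.2 to 27.2 against the other males, which had 7.39 to 11.0 among themselves. In the same library S100b had 17887 normalized counts, within the male range, while Aqp4 (2477), Slc1a3 (7290) and Gja1 (5549) were the lowest of the males.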

How the results depend on the processing

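With 6 genes in 4 comparisons, 0 genes passed the FDR under pseudocounts of 0.5 and 5, a mean of at least 50, TMM scaling, quantile normalization, edgeR or DESeq2, and 0 in the 3 comparisons between groups fitted on their own groups alone. In proestrus vs diestrus, leaving out single libraries gave 0 to 1 members, the 1 being S100b without diestrus replicate 5. Of all 15607 genes, 0 passed without proestrus replicate 1 or 3, 1147 without male replicate 3 and 1774 without diestrus replicate 5. Where 0 genes pass, the count of members says nothing about them. Same-numbered diestrus and male libraries deviated together with r of 0.05, 0.59, 0.36 and 0.40 (replicates 2, 3, 4 and 5), and diestrus replicate 2 went more with male replicate 3 (0.50), so the number was not taken as a pairing. The same r was 0.14 and 0.01 for proestrus and diestrus replicates 3 and 5. With the replicate number as a block, 1 member passed in proestrus vs diestrus, Aqp4 (0.33, limma adjusted p = 0.0498), and all genes passing went from 395 to 517. The block turned Aqp4 in proestrus vs males to 0.061 and S100b in females vs males to 0.014, both far from the FDR, and left the ratio of the transporters at 0.033, 0.27 and 0.21 over 2, 2 and 4 pairs.

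Directions near 0 turned. In proestrus vs males, Aqp4 was 0.014 under quantile normalization, and Slc1a3 was −0.0013 under TMM scaling, −0.0067 with edgeR and −0.0041 with DESeq2. Leaving out single libraries gave −0.082 to 0.069 for Aqp4 and −0.065 to 0.070 for Slc1a3 there, −0.098 to 0.012 for S100b in females vs males and −0.049 to 0.18 for the ratio in proestrus vs diestrus. Quantile normalization, which moved the median of all genes in proestrus vs diestrus to −0.06, changed values away from 0 as well, such as S100b there (−0.14). Among pairs outside the trio, centring on group means turned r to −0.11 (Gfap and Aqp4), 0.25 (Gfap and Slc1a2), −0.070 (Gfap and Slc1a3), 0.51 (S100b and Slc1a2) and 0.012 (S100b and Slc1a3). Without the 2 farthest libraries r turned to 0.058 (Gfap and Gja1), 0.23 (Aqp4 and S100b), 0.24 (Aqp4 and Slc1a2), 0.010 (Slc1a2 and Slc1a3) and 0.12 (Slc1a2 and Gja1). Without diestrus replicates 2 and 3 and male replicate 3, r turned to 0.20 (Gfap and Gja1), 0.53 (Aqp4 and S100b) and 0.28 (Aqp4 and Slc1a2). On the same libraries it turned to 0.73 (S100b and Slc1a3), 0.33 (S100b and Gja1), 0.11 (Slc1a2 and Slc1a3) and 0.51 (Slc1a2 and Gja1). The cause of these changes was not tested. With TMM scaling, 3 of 15 pairs passed, as in the main scaling. Without 1 of its own libraries, the exact test of the ratio cannot reach 0.05 in either comparison with proestrus.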

Other observations

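The coefficient of variation of Gfap over the 11 libraries, 23.1%, was above that of 98.8% of the 855 genes within 2-fold of its mean. Without male replicate 3, a choice made after seeing the data, it was 12.4%, above 77.6% of such genes and below the 16.4% of Aqp4. The same share was 89.2% for Aqp4, 74.2% for S100b, 71.0% for Slc1a3, 68.8% for Gja1 and 47.4% for the Slc1a2 row, each among the genes within 2-fold of its own mean.

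The 6 members shared no single profile, as 9 of their 15 pairs had a negative r, so their mean profile need not resemble each of them. The genes most like this mean, among 11725 other genes averaging 50 or more normalized counts, were ENSRNOG00000020715 (r = 0.93) and ENSRNOG00000025670 (r = 0.90). The former varied little, from 4362 to 4706 normalized counts, and the latter from 18.2 to 115, highest in male replicate 4. No member correlated with library depth past the correction over 6 tests (r from −0.46 for the Slc1a2 row to 0.04 for Gfap, adjusted permutation p of 0.696 or more).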
